A study of Mus musculus with 16 samples.

Results

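The genes described here are 35 genes that are read as marks of immune cells in the kidney, of 28971 genes in the deposited count table. They were taken by symbol from a list of names, with no threshold on a measured value. Of the 35, 34 carried their current symbol in the table and 1, Adgre1, was found by its Ensembl identifier under the older symbol Emr1. They fall into 5 roles: 5 genes of leukocytes in general, 15 of macrophages and monocytes, 2 of neutrophils, 8 of lymphocytes and 5 of antigen presentation on class II molecules. The sample titles name 7 Hes1 cKO and 9 control kidneys of both sexes, of which 3 Hes1 cKO and 4 control libraries, all of whole-kidney RNA, could be used. The Hes1 cKO genotype combines Pax8-rtTA and TRE-Cre with Hes1 f/f, the floxed gene on both chromosomes, so that Cre is made under doxycycline where Pax8 is active, which in the kidney is the tubule epithelium and not the immune cells. Controls are labelled as wild type littermates, with no allele named. All animals of both groups received doxycycline at 1 mg/mL with 5% sucrose in drinking water for 1 week from 3 weeks of age. The column names give the genotype and not the animal or its sex, so Hes1 cKO 1 to 3 and control 1 to 4 only name columns, and the p-values measure the spread between these libraries, which may be technical in part.

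Resident macrophages are the most numerous immune cells of a healthy kidney. They sit between tubules and capillaries, depend on signals through the receptor encoded by Csf1r, and clear dying cells and particles with the help of the C1q proteins. Dendritic cells, B cells and macrophages load peptides onto class II molecules, which are built from H2-A and H2-E chains, carried by the invariant chain encoded by Cd74 and switched on by the coactivator encoded by Ciita. T cells read such complexes through a receptor that signals through CD3 chains, with CD4 as coreceptor for class II and CD8 for class I. In whole tissue, fewer cells of a type and less RNA per cell cannot be told apart.

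Total counts ranged from 16973931 to 20420422 per library. Hes1 itself was at 17.2 to 19.8 CPM across Hes1 cKO against 42.8 to 67.6 CPM across the controls, where CPM is the read count scaled to the TMM-adjusted library size. Its log2 fold change was -1.61 (SE 0.16, adjusted p 0.00357 by edgeR). Xist was at 333 to 367 CPM in Hes1 cKO 3, control 3 and control 4 and at most at 0.371 CPM elsewhere, so both groups mix libraries with and without it. Xist RNA is made in female cells, so Hes1 cKO 3, control 3 and control 4 read as female and the others as male. The column names do not state the sex. Over all genes, edgeR's quasi-likelihood test called 53 of 15615 tested genes at an adjusted p under 0.05, which is 0.339%, with 0.32% higher and 0.0192% lower in Hes1 cKO.

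Of the 35 genes, 26 had enough reads to be tested and none was called (0 of 26, beside 0.339% of all tested genes). At an unadjusted p under 0.05 there were 2, Cd8a and Cd52, both lower in Hes1 cKO, beside 5.95% of all tested genes in either direction and 2.61% in the lower one. limma-voom, which called 0.327% of all genes, also called 0 of 26, while DESeq2's Wald test called 1, Cd8a. The median log2 fold change over the 26 was -0.12, beside -0.0064 over all tested genes, with 15 below 0 and 11 above. The 9 untested genes were Itgam, Itgax, S100a8, S100a9, Cd3e, Cd3g, Cd4, Nkg7 and Ccl5, and none of them had more than 15 reads in any library.

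**Figure D1:**
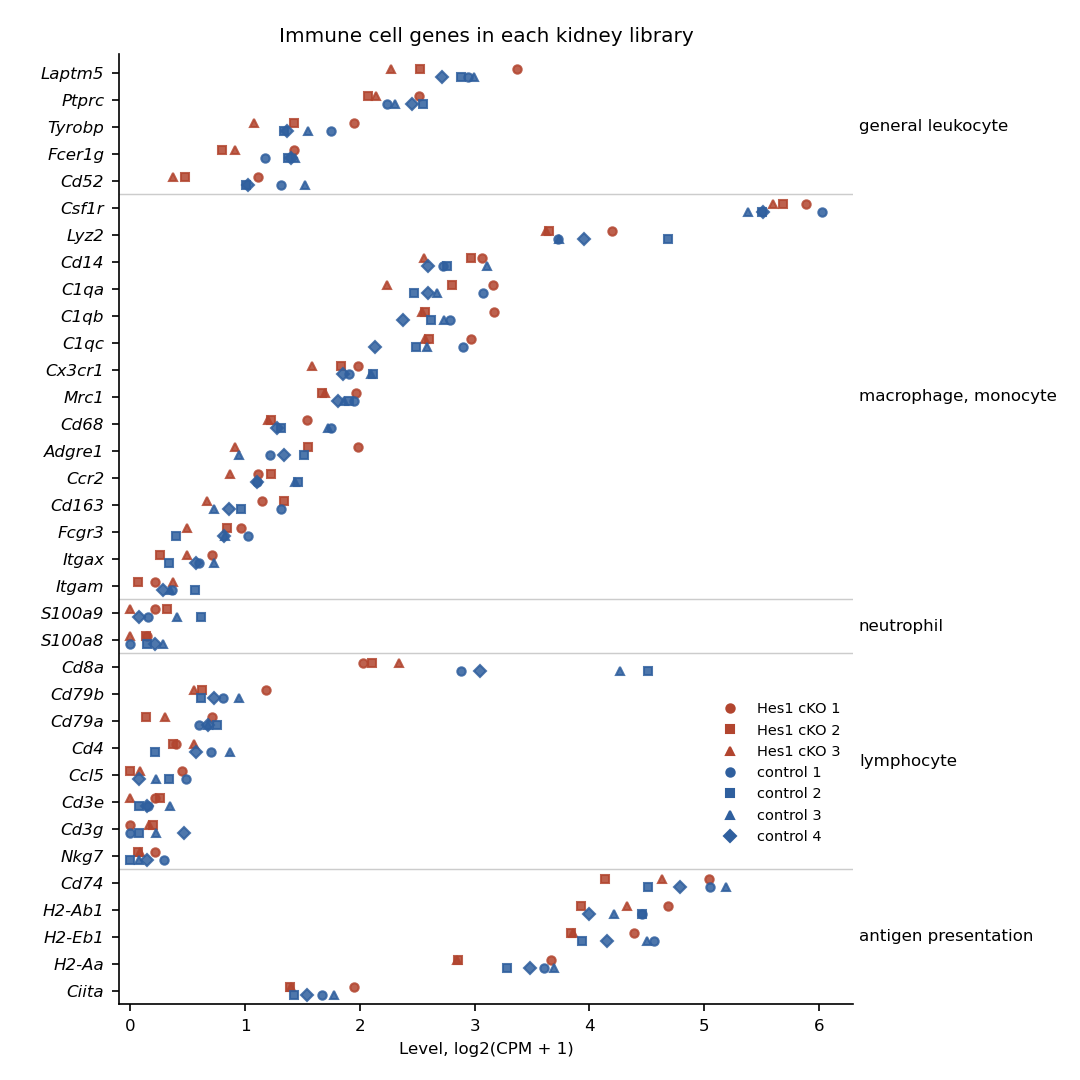
Level of each of the 35 immune cell genes in each library, on a log2(CPM + 1) axis, grouped by role and ordered by mean level within a role. Red points are the 3 Hes1 cKO libraries and blue points the 4 control libraries; Cd8a is the tested gene whose groups do not overlap, and most lymphocyte and neutrophil genes lie near 0.

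Promoter sequence was available for 23 of the 35 genes, from RefSeq on the build GRCm38.p6, as windows of 250 bases before to 50 after a gene's start. Shown first are H2-Aa and H2-Eb1, neighbouring class II genes and the only 2 antigen presentation genes of the list with a window. H2-Ab1, Cd74 and Ciita had none. In both genes shown, Hes1 cKO 2 and 3 lay below all controls. Capitals mark the Y box, CTGATTGG, an element of class II promoters that binds the factor NF-Y. H2-Aa is read at chr17:34287774-34288073 on the minus strand and H2-Eb1 at chr17:34305617-34305916 on the plus strand.
H2-Aa: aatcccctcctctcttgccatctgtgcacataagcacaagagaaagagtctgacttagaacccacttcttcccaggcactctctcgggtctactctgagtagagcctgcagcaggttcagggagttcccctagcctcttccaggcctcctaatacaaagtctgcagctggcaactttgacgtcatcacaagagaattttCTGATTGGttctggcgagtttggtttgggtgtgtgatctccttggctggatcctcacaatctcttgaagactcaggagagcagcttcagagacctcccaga
H2-Eb1: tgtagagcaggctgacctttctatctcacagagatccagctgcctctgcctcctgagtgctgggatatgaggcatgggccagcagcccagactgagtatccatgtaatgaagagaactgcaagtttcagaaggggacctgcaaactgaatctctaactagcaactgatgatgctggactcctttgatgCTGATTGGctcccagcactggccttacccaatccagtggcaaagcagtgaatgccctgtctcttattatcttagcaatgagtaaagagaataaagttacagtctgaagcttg
The Y box began 51 bases before the start of H2-Aa and 62 bases before that of H2-Eb1, both on the strand of the gene. Searched on both strands, CTGATTGG was in 4.1% of all 32851 windows. Next are C1qb and C1qc, neighbours on chromosome 4 whose products join with that of C1qa into the C1q complex. Capitals mark GAGGAA or its reverse complement, the core of the site bound by PU.1, a factor that macrophages need. C1qb is read at chr4:136886151-136886450 and C1qc at chr4:136892865-136893164, both on the minus strand.
C1qb: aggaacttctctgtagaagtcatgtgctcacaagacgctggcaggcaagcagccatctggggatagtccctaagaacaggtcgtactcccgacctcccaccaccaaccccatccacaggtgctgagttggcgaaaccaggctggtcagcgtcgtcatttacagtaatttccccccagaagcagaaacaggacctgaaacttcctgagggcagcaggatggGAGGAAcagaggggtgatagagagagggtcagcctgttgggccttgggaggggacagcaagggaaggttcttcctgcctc
C1qc: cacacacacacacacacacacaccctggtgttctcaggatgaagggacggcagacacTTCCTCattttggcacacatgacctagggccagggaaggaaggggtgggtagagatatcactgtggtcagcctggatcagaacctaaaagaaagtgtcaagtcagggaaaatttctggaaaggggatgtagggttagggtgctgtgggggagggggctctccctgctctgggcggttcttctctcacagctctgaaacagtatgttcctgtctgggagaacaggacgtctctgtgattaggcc
The core began 30 bases before the start of C1qb on the strand of the gene, and 193 bases before that of C1qc on the opposite strand. GAGGAA was in 28.3% of all windows, searched on both strands, and in 7 of the 12 windows of macrophage and monocyte genes. It was also in 3 of 5 windows of lymphocyte genes, 2 of 4 of general leukocyte genes, 1 of 2 of neutrophil genes and 0 of 2 of antigen presentation genes. A match is a description of the letters and not evidence of binding.

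The genes of leukocytes in general were present at low levels, and 4 of 5 had a log2 fold change below 0, with a median of -0.17. Ptprc encodes CD45, the phosphatase found on all white blood cells. It was at 4.71, 3.21 and 3.41 CPM across Hes1 cKO 1, 2 and 3 against 3.73, 4.87, 3.95 and 4.48 CPM in control 1, 2, 3 and 4. The groups overlapped, with a log2 fold change of -0.17 (SE 0.20, adjusted p 0.974 by edgeR). Cd52, a small surface glycoprotein of lymphocytes and monocytes, was at 1.16, 0.396 and 0.294 CPM across Hes1 cKO against 1.49, 1.01, 1.87 and 1.04 CPM across the controls. Hes1 cKO 2 and 3 lay below every control and Hes1 cKO 1 lay among them. Its log2 fold change was -1.11 (SE 0.48, unadjusted p 0.0456, adjusted p 0.825 by edgeR), on 5 to 34 reads per library, and the exact permutation p was 0.114.

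Laptm5, a lysosomal membrane protein of blood cells, was at 9.31 CPM in Hes1 cKO 1, at 4.75 and 3.82 CPM in Hes1 cKO 2 and 3, and at 5.57 to 6.97 CPM across the controls. Tyrobp and Fcer1g encode adaptor chains that carry signals from receptors of myeloid and natural killer cells. Tyrobp spanned 1.12 to 2.86 CPM across Hes1 cKO against 1.54 to 2.35 CPM across the controls. Fcer1g spanned 0.742 to 1.69 CPM across Hes1 cKO against 1.26 to 1.70 CPM across the controls. The log2 fold changes of Laptm5, Tyrobp and Fcer1g were -0.10 (SE 0.28), 0.03 (SE 0.34) and -0.48 (SE 0.33). In all 3 genes Hes1 cKO 1 was the highest Hes1 cKO library, and the ranges of Hes1 cKO and control overlapped.

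Of the 15 macrophage and monocyte genes, 13 were tested, 0 were called and 0 had an unadjusted p under 0.05. Log2 fold changes ran from -0.37 (Ccr2) to 0.45 (Adgre1), 5 below 0 and 8 above, with a median of 0.076. Csf1r, the receptor for the growth factors CSF1 and IL34, had the highest CPM of the role. It was at 58.2, 50.4 and 47.6 CPM across Hes1 cKO against 64.3, 44.4, 40.8 and 44.8 CPM across the controls. Control 1 stood above every other library, and the 3 other controls lay below all Hes1 cKO libraries. The log2 fold change was 0.10 (SE 0.16, adjusted p 0.980 by edgeR).

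Lyz2, which encodes a lysozyme of macrophages and neutrophils, was at 17.4, 11.6 and 11.3 CPM across Hes1 cKO against 12.2, 24.8, 12.3 and 14.5 CPM across the controls. Control 2 was the highest library, and the log2 fold change of -0.25 (SE 0.27, adjusted p 0.974 by edgeR) became 0.045 without control 2. Red blood cell genes were also highest in control 2: the summed level of 5 such genes was 1570 CPM there and 317 to 726 CPM in the other libraries. Their part in the level of Lyz2 was not tested. Cd14, the coreceptor for bacterial lipopolysaccharide, was at 7.35, 6.82 and 4.88 CPM across Hes1 cKO against 5.62, 5.77, 7.63 and 5.02 CPM across the controls, with a log2 fold change of 0.08 (SE 0.20, adjusted p 0.991 by edgeR).

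The 3 C1q genes had the same libraries at the top. C1qa was at 7.93, 5.98 and 3.71 CPM across Hes1 cKO against 7.40, 4.55, 5.38 and 5.02 CPM across the controls. C1qb was at 7.99, 4.95 and 4.82 CPM across Hes1 cKO against 5.91, 5.14, 5.65 and 4.20 CPM across the controls. C1qc was at 6.82, 5.09 and 4.94 CPM across Hes1 cKO against 6.48, 4.61, 4.99 and 3.38 CPM across the controls. Each was highest in Hes1 cKO 1 and next highest in control 1, so the libraries at the top came from both groups. Their log2 fold changes were 0.08 (SE 0.27), 0.18 (SE 0.22) and 0.21 (SE 0.23), with edgeR adjusted p-values from 0.974 to 0.992.

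Adgre1 encodes F4/80, the surface protein by which mouse macrophages are usually recognised. It stood at 2.96, 1.93 and 0.882 CPM across Hes1 cKO and spanned 0.933 to 1.85 CPM across the controls, so that Hes1 cKO held both the highest and the lowest library. The log2 fold change was 0.45 (SE 0.40, adjusted p 0.962 by edgeR). Cx3cr1, the fractalkine receptor of resident macrophages, spanned 2.00 to 2.96 CPM across Hes1 cKO against 2.62 to 3.34 CPM across the controls. Ccr2, the receptor that draws monocytes out of the blood, spanned 0.823 to 1.34 CPM across Hes1 cKO against 1.15 to 1.75 CPM across the controls. The log2 fold changes of Cx3cr1 and Ccr2 were -0.25 (SE 0.22) and -0.37 (SE 0.30), neither with an unadjusted p under 0.05. Mrc1, a mannose receptor, spanned 2.18 to 2.91 CPM and 2.51 to 2.87 CPM in the same order of groups. Cd68, a protein of macrophage lysosomes, spanned 1.29 to 1.90 CPM and 1.42 to 2.35 CPM. Cd163, the receptor for haemoglobin bound to haptoglobin, and Fcgr3, a receptor for antibodies, were at or below 1.53 CPM in every library. The log2 fold changes of Mrc1, Cd68, Cd163 and Fcgr3 were -0.14, -0.32, 0.20 and 0.01, and none had an unadjusted p under 0.05. The integrin genes Itgam and Itgax, which encode CD11b and CD11c, had 1 to 12 reads per library and were not tested.

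Levels of different genes can be compared per length of exon, as CPM per kb of exon in GENCODE M21. The length joins all annotated exons of a gene, 18.313 kb for Ptprc and 3.798 kb for H2-Aa. It can exceed that of a single transcript, and the order of genes depends on it. On this scale the mean level over the 7 libraries was 16.05 for Cd74, 11.3 for Lyz2, 8.98 for H2-Eb1, 8.68 for Csf1r, 7.38 for H2-Ab1 and 5.49 for C1qa. It was 2.49 for H2-Aa, 0.503 for Adgre1, 0.221 for Ptprc, 0.215 for Ciita, 0.0944 for Itgax and 0.0318 for Cd3e. By this length Csf1r lay between H2-Eb1 and H2-Ab1 and above H2-Aa. The genes of F4/80, CD45, CD11c and CD3, which are used to sort these cells, lay well below these, as did Ciita.

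The neutrophil genes S100a8 and S100a9 encode the subunits of calprotectin, the main cytosolic protein of these cells. S100a8 had 0 to 4 reads and S100a9 0 to 10 reads per library, with 0 in Hes1 cKO 3 for both. A count of 0 there allows up to 0.176 CPM, by 3 reads, for counting error only. At this depth no difference in S100a8 or S100a9 was detectable. A further list of 10 neutrophil and mast cell genes had a summed 1.38, 1.09 and 1.53 CPM across Hes1 cKO. Across the controls it was at 2.01, 1.80, 2.25 and 2.78 CPM, so the groups did not overlap, on 22 to 51 reads per library. Of these 10 genes 2 were tested and 0 called.

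Of 8 lymphocyte genes, 3 were tested and 5 were too low. Cd8a (ENSMUSG00000053977, GRCm38 chr6:71373427-71379173, plus strand), the alpha chain of the CD8 coreceptor, was at 3.07, 3.31 and 4.06 CPM across Hes1 cKO against 6.37, 21.8, 18.2 and 7.26 CPM across the controls. All 4 controls lay above all 3 Hes1 cKO libraries, and the controls themselves split into a low and a high pair. Groups did not overlap in 7.01% of all tested genes, with Hes1 cKO below control in 3.29%. The log2 fold change was -1.95 (SE 0.44) with an unadjusted p of 0.00156, and the gene was not called (adjusted p 0.237 by edgeR). The exact permutation p was 0.0571, where the smallest of 35 splits is 0.0286. It was called by the Wald test of DESeq2, at an adjusted p of 0.0334, and by edgeR without a low-count filter, at an adjusted p of 0.00204. These called 0.813% and 0.352% of the genes they tested. When a library was left out, the adjusted p ran from 0.0771 without control 1 to 0.869 without Hes1 cKO 2 (edgeR).

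Cd8b1 and the CD3 genes were near 0 in the same libraries. Trac, a gene of the T cell receptor described below, had 23 reads over Hes1 cKO and 77 over the controls. Like Cd8a, it was lower in all Hes1 cKO libraries than in all controls. Cd8b1, whose product pairs with CD8 alpha on most CD8 T cells, had 0 to 3 reads per library against 58 to 412 reads of Cd8a. Over the 7 libraries there were 1182 reads of Cd8a, 6 of Cd8b1 and 52 of Cd3d, Cd3e and Cd3g together. Control 2 had 412 reads of Cd8a and 8 of the 3 CD3 genes, while control 1 had 111 and 4. Cd8a took 51.3% to 92.6% of the reads of the 8 lymphocyte genes in a library. Without it, the summed level of the other 7 was 2.91, 1.34 and 1.41 CPM across Hes1 cKO against 2.64, 1.75, 3.02 and 2.40 CPM across the controls. Those ranges overlapped, because Hes1 cKO 1 lay above 3 of the 4 controls. The summed level of a further list of 20 lymphocyte genes did not overlap, on 77 to 180 reads per library. It was at 5.71, 5.49 and 4.53 CPM across Hes1 cKO against 9.87, 9.53, 8.12 and 7.31 CPM across the controls. Ighm, an immunoglobulin gene, held the most reads of the list. It was at 1.53 to 2.49 CPM across Hes1 cKO against 2.31 to 3.44 CPM across the controls, so its groups overlapped. Of these 20 genes 5 were tested and 0 called. All 5 had a log2 fold change below 0, from -1.35 to -0.05 with a median of -1.32, beside 51.6% of all tested genes below 0. The summed level of the 10 neutrophil and mast cell genes did not overlap either, also lower in Hes1 cKO, on 22 to 51 reads per library. Summed levels of most other lists overlapped, among them those of other leukocyte and myeloid, dendritic cell, chemokine and interferon response genes. How often such sums separate the groups over all genes was not computed.

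**Figure D2:**
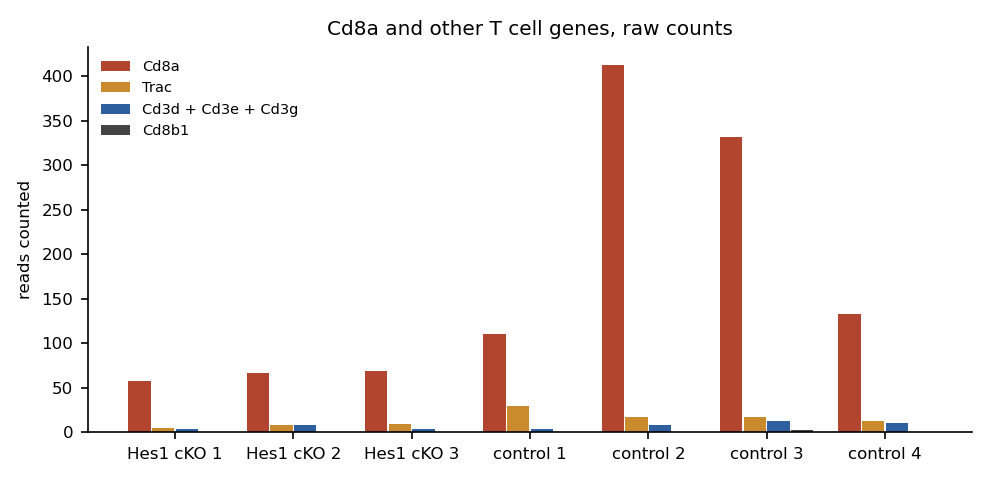
Reads of Cd8a, of Trac, of the 3 CD3 genes together and of Cd8b1 in each library, as raw counts on a linear axis from 0. Cd8a ran from 58 to 412 reads, highest in control 2 and control 3, while Trac had 5 to 30, the CD3 genes 4 to 13 and Cd8b1 0 to 3.

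Cd79a and Cd79b encode the signalling chains of the B cell receptor. Cd79a was at 0.635, 0.0989 and 0.235 CPM across Hes1 cKO against 0.516, 0.688, 0.604 and 0.600 CPM across the controls, on 2 to 13 reads. Its log2 fold change was -0.89 (SE 0.54, adjusted p 0.937 by edgeR), with Hes1 cKO 1 among the controls and Hes1 cKO 2 and 3 below them. Cd79b was at 1.27, 0.544 and 0.470 CPM across Hes1 cKO against 0.746, 0.530, 0.933 and 0.655 CPM across the controls, with a log2 fold change of 0.09 (SE 0.42, adjusted p 0.996 by edgeR). Cd4, the coreceptor of helper T cells, had 3 to 15 reads per library. Cd3e, Cd3g, Nkg7 (a granule protein of killer cells) and Ccl5 (a chemokine of activated T cells) had 0 to 7. No difference in these 5 was detectable at this depth.

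Of the 5 antigen presentation genes, all were tested, 0 were called and 0 had an unadjusted p under 0.05. Log2 fold changes ran from -0.39 (H2-Aa) to 0.05 (H2-Ab1), 4 of 5 below 0, with a median of -0.27 that ran from -0.49 without Hes1 cKO 1 to -0.057 without Hes1 cKO 2. Cd74, the invariant chain, was at 32.1, 16.6 and 23.8 CPM across Hes1 cKO against 32.1, 21.8, 35.5 and 26.7 CPM across the controls. The log2 fold change was -0.27 (SE 0.23, adjusted p 0.961 by edgeR). H2-Eb1, a beta chain of class II, was at 19.9, 13.4 and 13.5 CPM across Hes1 cKO against 22.7, 14.4, 21.7 and 16.8 CPM across the controls, a log2 fold change of -0.27 (SE 0.20, adjusted p 0.942 by edgeR). H2-Aa, an alpha chain, was at 11.7, 6.23 and 6.18 CPM across Hes1 cKO against 11.2, 8.74, 11.96 and 10.2 CPM across the controls, a log2 fold change of -0.39 (SE 0.24, adjusted p 0.938 by edgeR). In H2-Aa and H2-Eb1, Hes1 cKO 2 and 3 lay below all controls and Hes1 cKO 1 lay among them. H2-Ab1, the beta chain that pairs with that of H2-Aa, was at 24.8, 14.2 and 19.1 CPM across Hes1 cKO against 21.0, 21.0, 17.6 and 15.0 CPM across the controls, and its sign turned without Hes1 cKO 1 (-0.17) or control 4 (-0.04). Ciita spanned 1.63 to 2.86 CPM across Hes1 cKO against 1.69 to 2.41 CPM across the controls, with a log2 fold change of -0.0018 (SE 0.28).

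**Figure D3:**
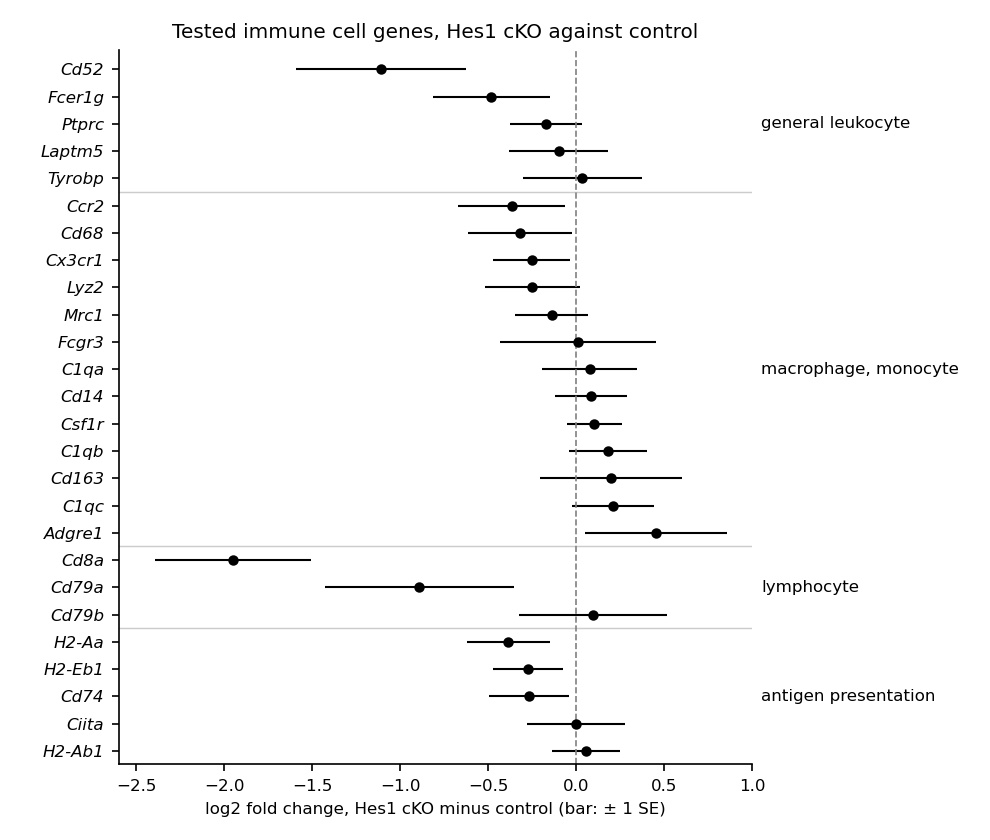
Log2 fold change of each tested immune cell gene, Hes1 cKO minus control, by role, with bars of 1 standard error on either side of the estimate from edgeR. Most estimates lie within 0.5 of 0; Cd8a (-1.95), Cd52 (-1.11) and Cd79a (-0.89) lie farthest below, and none was called.

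Library by library, most immune cell genes were higher in Hes1 cKO 1 than in Hes1 cKO 2 and 3. Of the 26 tested genes, 23 were highest in Hes1 cKO 1 among the 3 Hes1 cKO libraries, beside 34.1% of all tested genes. Over all 7 libraries, Hes1 cKO 1 was the highest for 10 genes, Hes1 cKO 3 the lowest for 13 and Hes1 cKO 2 the lowest for 8. The shares over all tested genes were 13.2%, 13.3% and 15.5%, in the same order. Hes1 cKO 3 was also the only Hes1 cKO library with Xist, and the part of sex in this spread was not tested. The summed level of the 5 genes of leukocytes in general was 19.7, 10.8 and 9.53 CPM across Hes1 cKO 1, 2 and 3 against 15.5, 15.4, 16.4 and 14.3 CPM across the controls. That of the 15 macrophage and monocyte genes was 121, 96.8 and 86.3 CPM across Hes1 cKO against 116, 102, 90.1 and 88.4 CPM across the controls. That of the 5 antigen presentation genes was 91.4, 52.0 and 64.1 CPM across Hes1 cKO against 89.1, 67.6, 89.2 and 70.6 CPM across the controls. In each of these 3 roles Hes1 cKO 1 lay above all 4 controls and Hes1 cKO 3 below all 4.

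Genes of other cell types also varied between the libraries. The summed level of 6 fibroblast genes was 468 CPM in Hes1 cKO 1 and 398 CPM in control 1, and 204 to 290 CPM in the other 5 libraries. The summed level of 7 endothelial genes was 476, 404 and 282 CPM across Hes1 cKO against 460, 377, 407 and 466 CPM across the controls. Control 4 was thus the highest control for these genes, but the lowest for the summed general leukocyte and macrophage genes. The part of fibroblast and endothelial genes in the spread of the immune cell genes was not tested. Markers of fat tissue were present at a summed 168 to 251 CPM, with Adipoq at 17.1 to 28.5 CPM. The summed level of 5 genes of lymphoid tissue was 0.574 to 1.69 CPM, with Glycam1 and Madcam1 at 0 to 2 reads. No gene of the fibroblast, endothelial, fat, lymphoid tissue or red blood cell lists was called.

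Without Hes1 cKO 1, none of 27 tested genes was called, and 8 had an unadjusted p under 0.05, all lower in Hes1 cKO, where 2.77% of all tested genes did. They were Fcer1g, Laptm5, Cd52, Cd8a, Cd79a, H2-Aa, H2-Eb1 and Cd74. For H2-Aa the log2 fold change was then -0.76 (SE 0.17, adjusted p 0.379 by edgeR) and for Cd52 -1.94 (SE 0.46, adjusted p 0.410 by edgeR). None of the 13 tested macrophage and monocyte genes was among the 8. The median of that role was -0.20 without Hes1 cKO 1, in place of 0.076. Hes1 cKO 1 was the highest Hes1 cKO library for 23 of 26 tested genes, so leaving it out lowers their Hes1 cKO mean by construction. The count of 8 is therefore no separate evidence of a difference. With any other library left out, 1 or 2 of the immune cell genes had an unadjusted p under 0.05 by edgeR.

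**Figure D4:**
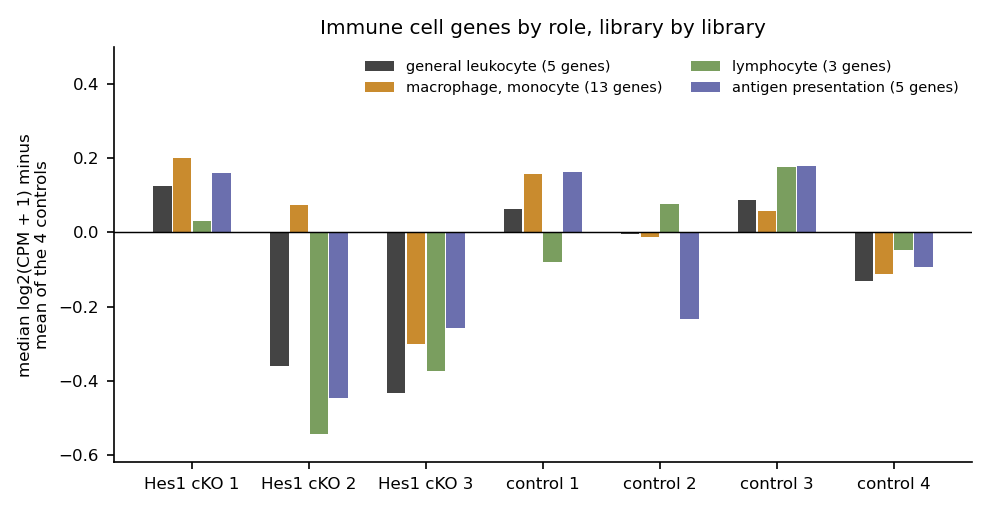
Median over the tested genes of each role of log2(CPM + 1) minus the mean of the 4 controls, in each library. All 4 roles lie above 0 in Hes1 cKO 1 and below 0 in Hes1 cKO 3; in Hes1 cKO 2 the macrophage and monocyte genes lie slightly above 0 and the other 3 roles below.

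Lists of other immune genes gave no call either. Of 27 other leukocyte and myeloid genes 13 were tested, of 20 other lymphocyte genes 5, of 8 dendritic cell genes 3, of 10 neutrophil and mast cell genes 2, of 15 chemokine and growth factor genes 10 and of 12 interferon response genes 12. At an unadjusted p under 0.05 there were 1, 2, 0, 0, 0 and 0, all lower in Hes1 cKO. Plac8 and Trac were among them. Over all tested genes, 5.95% had an unadjusted p under 0.05, and 2.61% had it and were lower in Hes1 cKO. Plac8, a gene of monocytes, granulocytes and some epithelia, was at 4.95 to 5.82 CPM across Hes1 cKO against 6.08 to 8.73 CPM across the controls, with a log2 fold change of -0.40 (SE 0.17, adjusted p 0.805 by edgeR).

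Trac encodes the constant part of the T cell receptor alpha chain. It was at 0.264, 0.396 and 0.588 CPM across Hes1 cKO against 1.72, 0.900, 0.933 and 0.710 CPM across the controls, with a log2 fold change of -1.35 (SE 0.44, adjusted p 0.661 by edgeR) on 5 to 30 reads. In Plac8 and Trac all controls lay above all Hes1 cKO libraries, as they did in 3.29% of all tested genes. Csf1, the ligand of the Csf1r product, was at 10.6 to 14.6 CPM across Hes1 cKO against 9.17 to 11.2 CPM across the controls (adjusted p 0.934 by edgeR), and Cx3cl1, the ligand of the Cx3cr1 product, was at 46.1 to 72.3 CPM and 48.3 to 61.4 CPM.

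Of 16 other genes of class II and class I antigen presentation, 15 were tested and 0 were called. At an unadjusted p under 0.05 there were 2, H2-DMb2 and Nlrc5, beside 5.95% of all tested genes. H2-DMb2 and its close copy H2-DMb1 encode beta chains of the molecule that loads peptides onto class II, and reads may have been split between them. H2-DMb2 was at 0.370, 0.396 and 0.235 CPM across Hes1 cKO against 1.78, 0.477, 1.81 and 1.09 CPM across the controls, a log2 fold change of -1.91 (SE 0.51, adjusted p 0.470 by edgeR). H2-DMb1 was at 13.7, 13.2 and 17.6 CPM across Hes1 cKO against 7.17, 20.2, 2.58 and 9.01 CPM across the controls. Control 3 was thus the lowest library for H2-DMb1 and the highest for H2-DMb2. Control 2 was the lowest control for H2-DMb2 and the highest library for H2-DMb1.

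H2-K1, a class I heavy chain, was also lowest in control 3 and, among controls, highest in control 2, at 250.2, 236 and 216 CPM across Hes1 cKO against 143, 224, 39.7 and 109 CPM across the controls. Its log2 fold change was 0.86 (SE 0.42, adjusted p 0.885 by edgeR). H2-D1, another class I heavy chain, was at 206 to 254 CPM across Hes1 cKO against 198 to 255 CPM across the controls. Nlrc5, the coactivator of class I genes, was at 1.32, 1.24 and 0.823 CPM across Hes1 cKO against 2.18, 1.54, 2.63 and 1.97 CPM across the controls, a log2 fold change of -0.87 (SE 0.29, adjusted p 0.689 by edgeR). H2 genes resemble each other and differ in sequence between mouse strains, so that the split of reads among them is uncertain. The strain of these animals is not given in the labels, and its part in these values was not tested. The class II genes H2-Aa, H2-Ab1 and H2-Eb1 did not have their lowest level in control 3. Among the controls, H2-Aa and H2-Eb1 were lowest in control 2, as was H2-DMb2, and H2-Ab1 was lowest in control 4. H2-Aa had its highest level in control 3, at 11.96 CPM, as H2-DMb2 did.

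**Figure D5:**
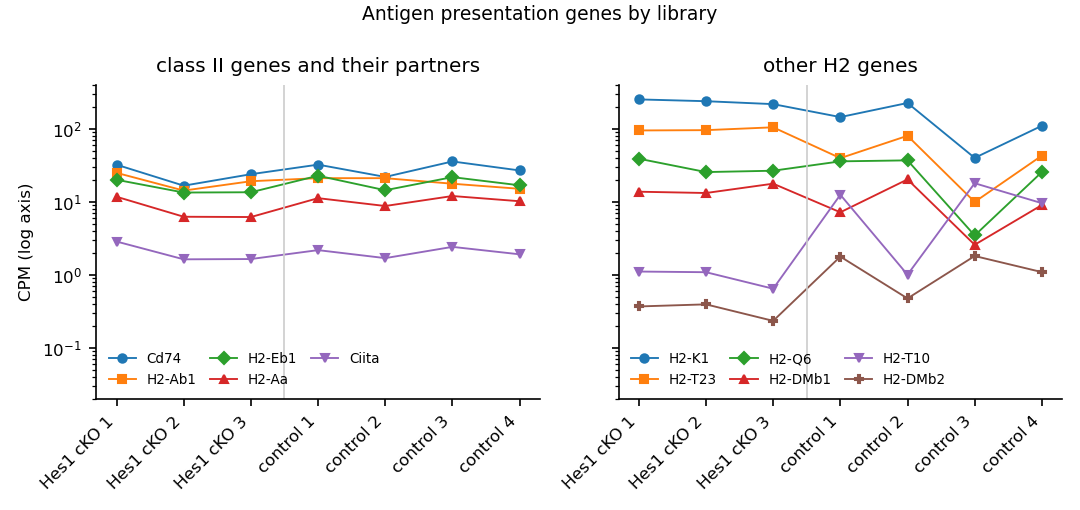
CPM of antigen presentation genes in each library, on a log axis; the left panel holds the 5 genes of the list and the right panel 6 other H2 genes, and the grey line parts Hes1 cKO from control. H2-K1, H2-T23, H2-Q6 and H2-DMb1 are lowest in control 3, at 39.7, 9.93, 3.46 and 2.58 CPM, where H2-T10 and H2-DMb2 are highest, at 17.9 and 1.81 CPM.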

How the data were processed

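RNA of whole mouse kidneys was sequenced as paired ends. The authors deposited tables of raw read counts per gene, without normalization. FastQC, STAR and DESeq2 and the builds mm10 and GRCm38 are named, without versions, per the submitters' processing notes. The counting program, its strand setting and annotation were not given in the sources used here. The 7 columns named as mutant or wild type were used. A second table has 9 columns of per-sample values whose names do not tell the genotype, and none of these was used.

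Low genes were dropped with edgeR 4.0.16 (filterByExpr, minimum count 10, under R 4.3.3). Libraries were scaled by TMM, the quasi-likelihood test of edgeR was run, and Benjamini-Hochberg adjustment covered all 15615 tested genes. An adjusted p under 0.05 is a call. Standard errors came from the F statistic. The exact two-sided permutation test used log2(CPM + 1) over 35 splits. Alternatives were other scalings, DESeq2 (1.42.0), limma-voom (3.58.1), other filters, an Xist covariate and leaving out each library. The fit was tested on simulated data. Limits for counts of 0 cover counting error only, since reads carry no molecular identifiers.

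All 35 genes are named. Every library is given for genes with an unadjusted p under 0.05 or groups that do not overlap, for the 3 highest in CPM of the macrophage, lymphocyte and antigen presentation roles, and for others the text turns on. Other lists name the genes with an unadjusted p under 0.05, of which 1 is not reported here. No measured value entered the rule for the 35 genes, but they and the other lists were chosen with earlier results of these data known.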

Additional observations from a re-analysis of the deposited data

Results flagged for a closer look

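Among 49 genes of this text tested in the 4 controls, 2 had a control library far from the other 3, and chance alone puts a library that far out in about 1 in 20 groups. Csf1r was at 64.3 CPM in control 1 and at 40.8 to 44.8 CPM in the other controls, so that the gap took 0.833 of the whole range, just above Dixon's 95% limit for 4 samples. Cd8b1 had 3 reads in control 3 and 0 in the other controls, a gap of 1 of the range that rests on those 3 reads. The 3 Hes1 cKO libraries are too few for this test.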

How the results depend on the processing

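No paired analysis was possible because the columns carry no replicate number of the labels. The count of called genes, 53, became 127 by DESeq2's Wald test and 102 without a low-count filter, and 25 to 47 when a library was left out. Of the immune cell genes 0 were called, and 1, Cd8a, by DESeq2 or without a low-count filter. The number at an unadjusted p under 0.05, 2, became 1 with total counts alone and spanned 1 to 8 when a library was left out (8 without Hes1 cKO 1). Leaving out a library moved the median log2 fold change of the general leukocyte genes from -0.17 to between -0.58 and -0.067, of the macrophage and monocyte genes from 0.076 to between -0.20 and 0.24, of the antigen presentation genes from -0.27 to between -0.49 and -0.057, and of the 3 lymphocyte genes from -0.89 to between -1.85 and -0.45. The lymphocyte median was -1.19 by limma-voom and -1.95 with a mean CPM of at least 1, which leaves Cd8a alone. Signs turned for Lyz2 (0.045 without control 2), Cd14 (-0.037 without Hes1 cKO 1), Cd79b (-0.014 by limma-voom, and from -0.49 to 0.33 when a library was left out) and H2-Ab1 (from -0.17 to 0.23); for these genes and Cd14 (up to 0.24) and Lyz2 (down to -0.48) no adjusted p was under 0.05. The log2 fold change of Cd8a stayed between -2.18 and -1.61. The cause of these moves was not tested. Genes under about 15 reads per library were beyond what this depth can compare. This limit also holds for Cd79a, with 2 to 13 reads, whose log2 fold change of -0.89 is the lymphocyte median.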

Other observations

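All genes with an H2 symbol were looked at together after their values had been seen. Of 19 such genes with a mean of at least 1 CPM, among them H2-Aa, H2-Ab1 and H2-Eb1, 9 had their lowest level in control 3 and 5 their highest. Of all tested genes, 13.1% were lowest and 14.9% highest in that library. In 8 of the 19 the level of control 3 was under 0.5 of the mean of the other controls. H2-T23, a class I-like gene, was at 94.2, 95.1 and 104 CPM across Hes1 cKO against 39.4, 79.6, 9.93 and 42.6 CPM across the controls. Its log2 fold change was 1.19 (SE 0.48, adjusted p 0.782 by edgeR), and it was not called. H2-T22 was at 41.2 to 51.3 CPM across Hes1 cKO against 32.9, 50.3, 7.13 and 19.8 CPM across the controls. H2-T10 went the other way, at 0.647 to 1.11 CPM across Hes1 cKO against 12.4, 1.01, 17.9 and 9.55 CPM across the controls. The log2 fold change of H2-T10 was -3.41 (SE 0.79, adjusted p 0.253 by edgeR), and it was not called either. H2-Q6 was at 25.4 to 38.7 CPM in 6 libraries and at 3.46 CPM in control 3. Control 2 was the control nearest to the Hes1 cKO libraries in H2-T23, H2-T22 and H2-T10, control 1 and control 4 lay between, and control 3 lay at the far end.

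The neighbours of Cd8a on chromosome 6 were read in the same libraries, also after its values had been seen. Smyd1 was at 2.70, 4.95 and 2.88 CPM across Hes1 cKO against 3.61, 6.73, 6.59 and 3.66 CPM across the controls, so that control 2 and control 3 were highest here as well (adjusted p 0.934 by edgeR). Krcc1 was at 51.3 to 56.9 CPM across Hes1 cKO against 53.3 to 67.0 CPM across the controls, and Rmnd5a at 165 to 199.6 CPM and 151 to 193 CPM.

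Emcn, an endothelial sialomucin, was the 1 gene of 7 in the endothelial list with an unadjusted p under 0.05, beside 5.95% of all tested genes. It was at 26.8, 22.9 and 19.1 CPM across Hes1 cKO against 33.0, 28.8, 29.6 and 35.8 CPM across the controls, a log2 fold change of -0.47 (SE 0.13, adjusted p 0.512 by edgeR).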
